A study of Homo sapiens with 4 samples.

Results

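The genes described here encode the Polo-like kinases PLK1, PLK2, PLK3 and PLK4 and other regulators of entry into mitosis, namely AURKA, TPX2, BORA, WEE1, PKMYT1 and PBK. These 10 genes were taken by symbol through the Ensembl gene ID from the 61852 gene IDs of the deposited tables, and all 10 were found. Poly(A) RNA was sequenced in 4 libraries. All came from H1299 cells, an established line of non-small-cell lung carcinoma from human whose genotype is given as p53-/-. In 2 libraries the cells expressed CASM34, a p53 form that the series title places among cancer-associated synonymous mutations, and in 2 they expressed wild-type p53 (p53WT). The labels name no treatment, drug, time point or batch and do not say how the p53 forms were delivered or whether the cells were clones, and cells expressing no p53 were not analysed here. They also do not say that the 2 libraries of a group came from separate cultures, so the p-values below take in no more than the differences among these 4 libraries, and those may be technical.

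Cells enter mitosis when the cyclin B kinase CDK1 becomes active. WEE1 and PKMYT1 (also called MYT1) hold CDK1 inactive by phosphorylating it. Aurora A (AURKA), with its cofactor BORA, activates PLK1, and PLK1 in turn promotes the removal of WEE1 and the activation of the CDC25 phosphatases that release CDK1. TPX2 binds AURKA on the spindle and keeps it active, while PLK4 controls the duplication of centrioles. PLK2 and PLK3 are stress-responsive relatives that are known as targets of p53, whereas PLK1, PLK4 and many other mitotic genes are known to be repressed after p53 activation through p21 and the DREAM complex, which binds promoters at cell cycle homology regions. PBK (also called TOPK) is a mitotic kinase of the MAPK kinase family.

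Of the 10 genes 1, PBK, was lower in CASM34 than in p53WT by the test used here, and the other 9 did not pass. The test was the quasi-likelihood F test of edgeR on expected counts rounded to whole numbers, with a Benjamini-Hochberg adjusted p under 0.05 over the 15965 genes tested, and all 10 genes were high enough to be tested. Of all genes tested, 1.95% passed, 1.61% as higher and 0.345% as lower. Levels per library are given in CPM, counts scaled to a common library total. The fitted log2 fold changes (CASM34 over p53WT) of the 10 genes lay between -0.27 for PBK and 0.30 for PLK3. Their median was -0.10, beside -0.000547 over all tested genes, and 7 lay below 0, as did 50.2% of all tested genes. That median moved with the handling of length: it was -0.0170 with effective length as an offset and -0.0132 in limma on log2(TPM + 1), where PLK4 and WEE1 lay above 0. The genes did not move together. With the effective length offset PLK4 went from -0.19 to 0.02 and BORA from -0.24 to -0.32, while AURKA (-0.16), TPX2 (-0.19) and PBK (-0.28) hardly moved. The groups did not overlap for 8 of the 10 genes, as for 47.9% of all tested genes. In 5 of these genes, PLK4, AURKA, TPX2, BORA and PBK, both CASM34 libraries lay below both p53WT libraries, an order held by 23.4% of tested genes. In PLK2, PLK3 and PKMYT1 both CASM34 libraries lay above, as in 24.5% of tested genes. An unadjusted p under 0.05 was reached by 7 of the 10, against 17.1% of all tested genes. In DESeq2 the count was lower, 4 of the 10, against 1245 of the 26177 genes in that fit.

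**Figure D1:**
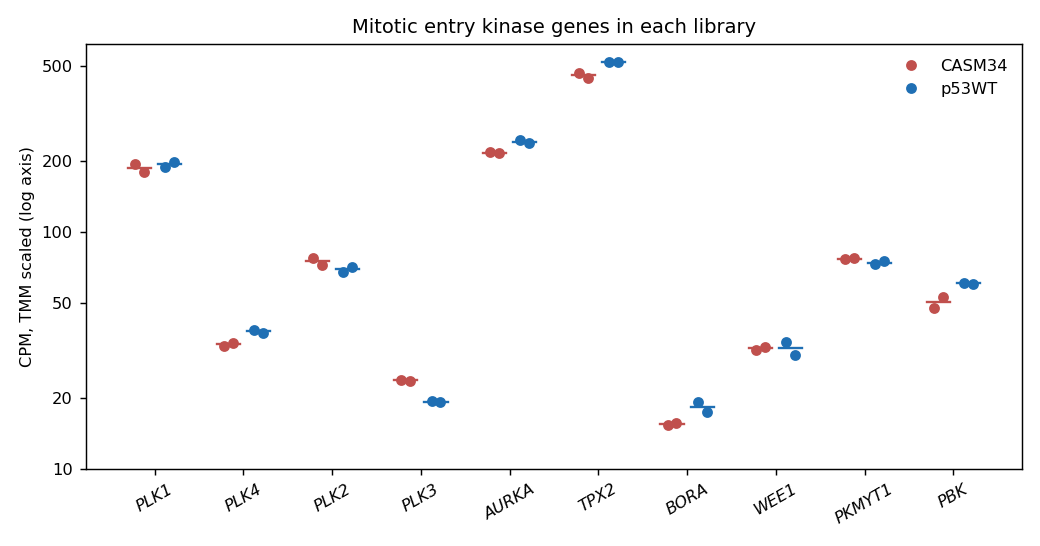
Level of each of the 10 genes in each library, in TMM-scaled CPM, on a log axis. Points are libraries, 2 of CASM34 (left) and 2 of p53WT (right), and bars are group means. Both PBK points of CASM34 (47.8 and 53.1 CPM) lie below those of p53WT (61.0 and 60.5 CPM), and the PLK1 points of the groups overlap.

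Levels per length, in TPM (each count divided by effective length and scaled to a common total), gave nearly the same order of the 10 genes in every library. AURKA was highest with 180.1 and 177 TPM in CASM34, against 199 and 198 TPM in p53WT. TPX2 followed with 174 and 167.0 TPM in CASM34, against 196 and 193 TPM in p53WT, and PLK1 came next, with 133 and 123 TPM in CASM34, against 132 and 131 TPM in p53WT. PKMYT1 followed in all 4 libraries, at 62.1 to 71.8 TPM. PLK2 stood above PBK in both CASM34 libraries and below it in both p53WT libraries. PLK4, PLK3, WEE1 and BORA made up the low end, at 9.16 to 23.3 TPM. Across the 4 libraries the levels of neighbours in this order overlapped for AURKA and TPX2, PLK2 and PBK, PLK3 and WEE1, and WEE1 and BORA, and did not overlap for PLK4 and PLK3.

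The promoters are shown to set PLK2 and PLK3, known as p53 targets, beside mitotic genes. RefSeq promoter sequences (GRCh38.p14) were matched for 5 of the 10 genes, and the 250 bases before the annotated start are printed for PLK1, PLK2, PLK3 and BORA, with capitals at the letters searched for on both strands: TTTGAA, which is a form of the cell cycle homology region, the CCAAT box, the decamer consensus of the p53 response element, and for E2F the motif TTCCCGC along with the alternative form TTGGCGC. Windows can reach into transcripts that begin upstream of that start.
PLK1, chr16:23678639-23678888, plus strand: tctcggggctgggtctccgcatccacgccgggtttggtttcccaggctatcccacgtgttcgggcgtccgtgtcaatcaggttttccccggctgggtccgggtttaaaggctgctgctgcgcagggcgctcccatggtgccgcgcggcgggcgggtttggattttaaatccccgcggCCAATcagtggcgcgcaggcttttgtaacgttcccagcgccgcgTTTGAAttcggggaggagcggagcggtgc
PLK2, chr5:58460087-58460336, minus strand: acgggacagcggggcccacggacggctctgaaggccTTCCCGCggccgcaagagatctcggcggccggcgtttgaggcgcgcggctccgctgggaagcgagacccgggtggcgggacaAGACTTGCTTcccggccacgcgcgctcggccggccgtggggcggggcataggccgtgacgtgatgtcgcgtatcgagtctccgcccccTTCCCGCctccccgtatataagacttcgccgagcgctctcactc
PLK3, chr1:44800127-44800376, plus strand: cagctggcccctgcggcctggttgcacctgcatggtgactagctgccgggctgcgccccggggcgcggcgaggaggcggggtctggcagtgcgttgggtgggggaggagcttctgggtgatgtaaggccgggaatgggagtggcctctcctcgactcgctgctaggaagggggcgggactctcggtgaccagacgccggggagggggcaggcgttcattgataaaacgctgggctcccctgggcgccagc
BORA, chr13:72727673-72727922, plus strand: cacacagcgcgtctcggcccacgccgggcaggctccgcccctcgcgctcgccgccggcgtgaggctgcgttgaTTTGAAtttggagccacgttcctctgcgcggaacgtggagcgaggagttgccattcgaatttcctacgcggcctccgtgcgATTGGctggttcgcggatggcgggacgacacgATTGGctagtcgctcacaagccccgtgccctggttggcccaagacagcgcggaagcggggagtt
The PLK1 window held TTTGAA 29 to 24 bases before the start and CCAAT upstream of it. In the BORA window the order was the reverse. There TTTGAA lay 177 to 172 bases before the start, upstream of a pair of CCAAT boxes on the minus strand. TTTGAA occurs in 13.3% and CCAAT in 32.0% of all 35116 promoter windows of that table. The PLK2 window held TTCCCGC at 2 places and 1 match to the p53 decamer, 132 to 123 bases before the start, which 5.57% of all windows hold. That decamer is a half-site, not a full response element. An E2F motif stands in 7.81% of all windows. None of these motifs is in the PLK3 window or in that of the first PLK4 start. Of the windows of 2 further PLK4 starts, 1 held TTGGCGC and the other CCAAT, each on the minus strand. These matches are a description of letters, not of binding.

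PLK1 (ENSG00000166851.15, GRCh38 chromosome 16, 23677656 to 23690367, plus strand, GENCODE 29), the Polo-like kinase of the spindle and of mitotic entry, did not pass the test. It had 194 and 179 CPM in CASM34, against 189 and 197 CPM in p53WT. The groups overlapped, and the fitted log2 fold change was -0.05 (SE 0.05, 95% interval -0.15 to 0.06, edgeR adjusted p = 0.701). PLK4 (ENSG00000142731.11, chromosome 4, 127880861 to 127899195, plus strand), the centriole duplication kinase, had 32.9 and 34.1 CPM in CASM34, against 38.7 and 37.4 CPM in p53WT. Both CASM34 libraries were lower, at -0.19 in log2 (SE 0.06, 95% interval -0.32 to -0.05), and the difference missed the threshold (edgeR adjusted p = 0.157). On the TPM scale the PLK4 groups overlapped, with 19.4 and 22.7 TPM in CASM34 and 23.3 and 18.1 TPM in p53WT, and the log2 ratio of the group means was 0.03.

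PLK2 and PLK3 lay on the other side of 0. PLK2 (ENSG00000145632.15, chromosome 5, 58453982 to 58460260, minus strand) had 77.9 and 72.8 CPM in CASM34, against 67.8 and 71.0 CPM in p53WT. Both CASM34 libraries were above both p53WT libraries, but by little, with a log2 fold change of 0.12 (SE 0.05, 95% interval 0.00319 to 0.24, edgeR adjusted p = 0.278). Per length the groups stood further apart, with 50.5 and 50.1 TPM in CASM34, against 38.3 and 40.9 TPM in p53WT, a log2 ratio of the group means of 0.34. In limma on log2(TPM + 1) that difference did not pass (adjusted p = 0.317). PLK3 (ENSG00000173846.13, chromosome 1, 44800225 to 44805990, plus strand) was tightly grouped, with 23.7 and 23.5 CPM in CASM34, against 19.2 and 19.1 CPM in p53WT. Its mean was 23.6 ± 0.203 CPM in CASM34 and 19.2 ± 0.112 CPM in p53WT (SD, n = 2 each). The log2 fold change of 0.30 (SE 0.08, 95% interval 0.13 to 0.48), a 1.23-fold difference, missed the threshold over all genes (edgeR adjusted p = 0.0779). The PLK3 log2 fold change ran from 0.29 to 0.31 without single libraries. It was 0.30 in DESeq2 (adjusted p = 0.410) and 0.29 with effective length as an offset (edgeR adjusted p = 0.380). Once GC content and length entered as an offset it was 0.19 (edgeR adjusted p = 0.365).

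**Figure D2:**
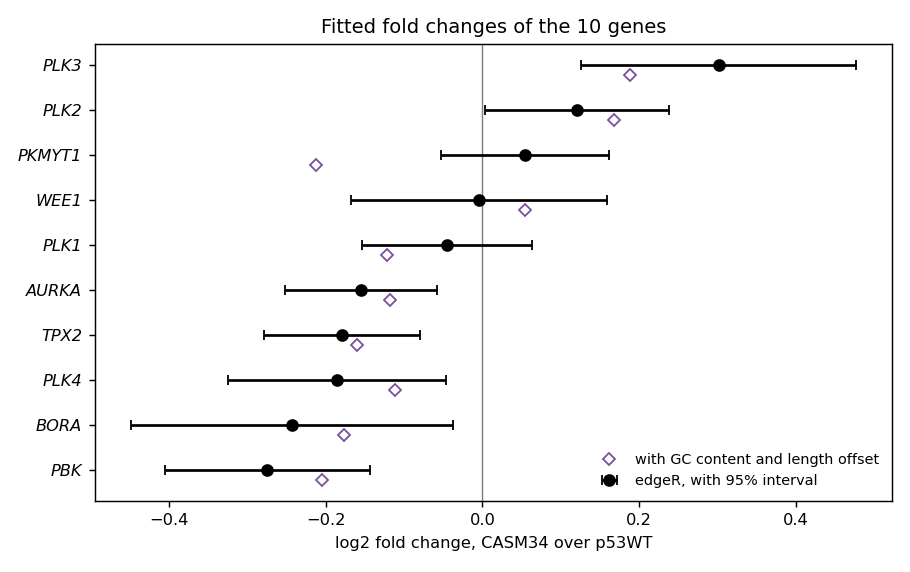
Fitted log2 fold change of CASM34 over p53WT for the 10 genes, with 95% intervals not adjusted for multiple testing (filled circles), and the same fit with an offset for GC content and length (open diamonds). PLK3 and PLK2 lie above 0 and PBK, BORA, PLK4, TPX2 and AURKA below 0 in both fits, and PKMYT1 lies at 0.05 without the offset and at -0.21 with it.

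Set against each other within a library, PLK2 and PLK3 made up more of the summed Polo-like kinase TPM in CASM34, although neither gene passed the test. The ratio of PLK2 to PLK1 was 0.379 and 0.406 in CASM34, against 0.291 and 0.311 in p53WT (TPM over TPM). The ratio of PLK3 to PLK1 was 0.131 and 0.143 in CASM34, against 0.115 and 0.103 in p53WT. The ratio of PLK3 to PLK4 was 0.900 and 0.777 in CASM34, against 0.650 and 0.750 in p53WT. In these 3 ratios the groups did not overlap. Of single tested genes 47.9% did not overlap either, in CPM, and the share over ratios of other gene pairs was not counted. The ratio of PLK2 to PLK4, at 2.59 and 2.21 in CASM34 and 1.65 and 2.27 in p53WT, overlapped in TPM and did not overlap in CPM. The group difference in the log2 ratio of PLK2 to PLK1 was 0.38 in TPM and 0.17 in CPM, and that of PLK3 to PLK1 was 0.33 in TPM and 0.35 in CPM. With 2 libraries a group, an exact two-sided permutation test cannot go below p = 0.333, so no test of a ratio was made. Of the summed TPM of PLK1 to PLK5, PLK1 took 60.2% and 57.3% in CASM34, against 63.0% and 64.3% in p53WT, and PLK2 took 22.8% and 23.2% in CASM34, against 18.4% and 20.04% in p53WT. The remaining family member, PLK5, which in human is known as a truncated kinase-dead protein, was near the low end of detection with 35 and 25 counts in CASM34, against 12 and 11 counts in p53WT. That is 1.31 and 1.37 CPM in CASM34, against 0.552 and 0.426 CPM in p53WT, a log2 fold change of 1.45 (SE 0.41) that did not pass (edgeR adjusted p = 0.0874).

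**Figure D3:**
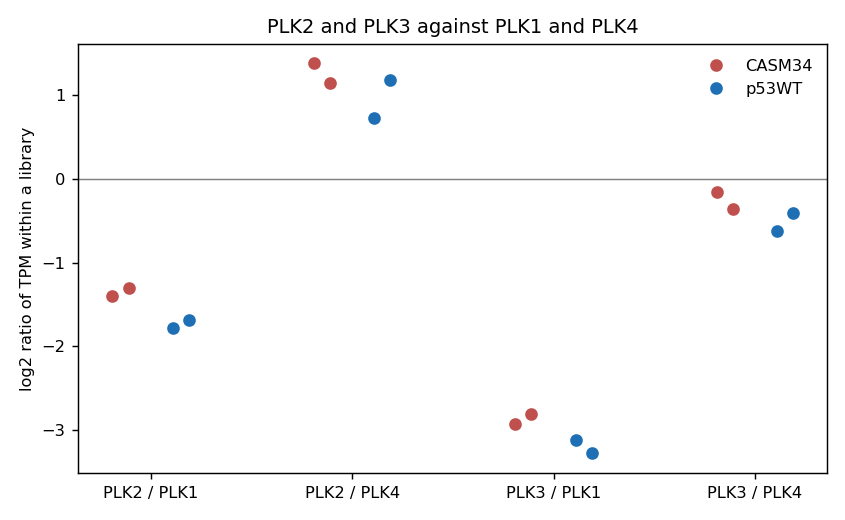
Log2 ratio of TPM within each library for PLK2 or PLK3 over PLK1 or PLK4, with CASM34 on the left and p53WT on the right of each pair. PLK2 over PLK1 lies at -1.40 and -1.30 in CASM34 and at -1.78 and -1.68 in p53WT, and PLK2 over PLK4 overlaps between the groups.

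None of AURKA, TPX2 and BORA passed, and in each of them both CASM34 libraries lay below both p53WT libraries. AURKA (ENSG00000087586.18, chromosome 20, 56369389 to 56392337, minus strand) had 217 and 215 CPM in CASM34, against 244 and 237 CPM in p53WT, a difference of -0.16 in log2 (SE 0.04, 95% interval -0.25 to -0.06, edgeR adjusted p = 0.0971). TPX2 (ENSG00000088325.16, chromosome 20, 31739271 to 31801805, plus strand), the most counted of the 10 genes, had 470 and 448 CPM in CASM34, against 519 and 520.3 CPM in p53WT. Its log2 fold change was -0.18 (SE 0.05, 95% interval -0.28 to -0.08, edgeR adjusted p = 0.0671). The call on TPX2 turned with the setting. TPX2 passed in DESeq2 (-0.18, adjusted p = 0.00442) and limma-voom (adjusted p = 0.0421). When low counts were left unfiltered it passed too (edgeR adjusted p = 0.0186). Under the offset for GC content and length it did not pass (-0.16, edgeR adjusted p = 0.120). It also missed the threshold with effective length as the offset (-0.19, edgeR adjusted p = 0.284). The same held in limma on log2(TPM + 1) (-0.19, adjusted p = 0.338). Fits with a replicate block, in which TPX2 passed, are given at the end. Without single libraries its log2 fold change ran from -0.22 to -0.15. AURKA and TPX2 kept nearly equal levels per length, with a ratio of AURKA to TPX2 of 1.03 and 1.06 in CASM34 and 1.02 and 1.03 in p53WT. BORA (ENSG00000136122.18, chromosome 13, 72727749 to 72756198, plus strand), the least counted, had 15.3 and 15.7 CPM in CASM34, against 19.2 and 17.5 CPM in p53WT. Both CASM34 libraries were below both p53WT libraries, with a log2 fold change of -0.24 (SE 0.09, 95% interval -0.45 to -0.04, edgeR adjusted p = 0.207). BORA counts were fractional in all 4 libraries, and 1180 exonic bases are shared with DIS3 on the opposite strand, so without a stated strand setting its level is uncertain.

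The inhibitory kinases of CDK1 did not pass either. WEE1 (ENSG00000166483.12, chromosome 11, 9573681 to 9593457, plus strand), the nuclear CDK1 inhibitor, had 31.8 and 32.7 CPM in CASM34, against 34.4 and 30.3 CPM in p53WT. The groups overlapped, and the log2 fold change was -0.00439 (SE 0.08, 95% interval -0.17 to 0.16, edgeR adjusted p = 0.984). PKMYT1 (ENSG00000127564.17, chromosome 16, 2968024 to 2980539, minus strand), the membrane-bound CDK1 inhibitor, had 77.0 and 77.3 CPM in CASM34, against 72.9 and 75.6 CPM in p53WT. Its log2 fold change was 0.05 (SE 0.05, 95% interval -0.05 to 0.16, edgeR adjusted p = 0.628). PKMYT1 has the highest GC content of the 10 genes, 66.4%, and it lay on the other side of 0, at -0.21, when the offset was used (edgeR adjusted p = 0.0823). Its counts were fractional in all 4 libraries, and it shares 1233 exonic bases with PAQR4 and 360 with KREMEN2, both on the opposite strand, so its level is uncertain. The ratio of WEE1 to PKMYT1 was 0.182 and 0.199 TPM over TPM in CASM34 and 0.203 and 0.175 in p53WT, and overlapped.

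PBK (ENSG00000168078.10, chromosome 8, 27809620 to 27838095, minus strand) fell to 50.5 ± 3.73 CPM in CASM34, against 60.8 ± 0.352 CPM in p53WT (SD, n = 2 each). The libraries had 47.8 and 53.1 CPM in CASM34, against 61.0 and 60.5 CPM in p53WT. The CASM34 libraries differed from each other by more than the p53WT libraries did, and all of CASM34 lay below all of p53WT. The log2 fold change was -0.27 (SE 0.06, 95% interval -0.41 to -0.14, edgeR adjusted p = 0.0386), a level 17.3% lower. The call rested on single libraries: the adjusted p was 0.169 without p53WT replicate 1, 0.123 without p53WT replicate 2 and 0.168 without CASM34 replicate 1 (edgeR, log2 fold changes of -0.27, -0.28 and -0.20), and 0.000313 without CASM34 replicate 2 (-0.35). It was also lost with library totals in place of TMM (edgeR adjusted p = 0.0679), in DESeq2 (-0.28, adjusted p = 0.130) and under the offset for GC and length (-0.20, edgeR adjusted p = 0.158). By that offset 0.188% of all tested genes and none of the 10 passed. There 7 of the 10 had an unadjusted p under 0.05, as did 1889 of all 15965 tested genes. With effective length as the offset PBK lay at -0.28 (edgeR adjusted p = 0.311), and in limma on log2(TPM + 1) at -0.27 (adjusted p = 0.349). The next gene on the opposite strand, ESCO2, a cohesin acetyltransferase gene whose span overlaps that of PBK by 3021 bases but shares no exonic base with it, was chosen with its values in view. It had 22.4 and 25.04 CPM in CASM34, against 31.9 and 29.5 CPM in p53WT, and fell with a log2 fold change of -0.38 (edgeR adjusted p = 0.0364). PBK counts were whole in all 4 libraries.

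The length that RSEM reports for a gene, the mean of its transcripts weighted by their estimated abundance, is a readout the counts do not contain. For PLK2 it was 2122 and 2022 bases in CASM34, against 2424 and 2345 bases in p53WT, 13.1% shorter. Both CASM34 libraries were shorter than both p53WT libraries, as also for PLK4 and PLK1, and this order held for 16.5% of all tested genes, while 13.1% were longer in that way. For PLK4 the lengths were 2296 and 2083 bases in CASM34, against 2298 and 2743 bases in p53WT, so 1 p53WT library stood apart and the other nearly met the CASM34 range. For PLK1 the difference was -1.15%, with 2016.43 and 2023.2 bases in CASM34, against 2023.39 and 2063.43 bases in p53WT. There too 1 p53WT library nearly met the CASM34 range. The other 7 genes overlapped, and TPX2 varied least, with a range of 0.0483% of its mean. A shorter estimated length raises TPM for a given count, and the log2 difference of PLK2 was 0.34 in TPM and 0.12 in CPM. The length is an estimate from reads shared between transcripts, and its error is not given in the tables.

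**Figure D4:**
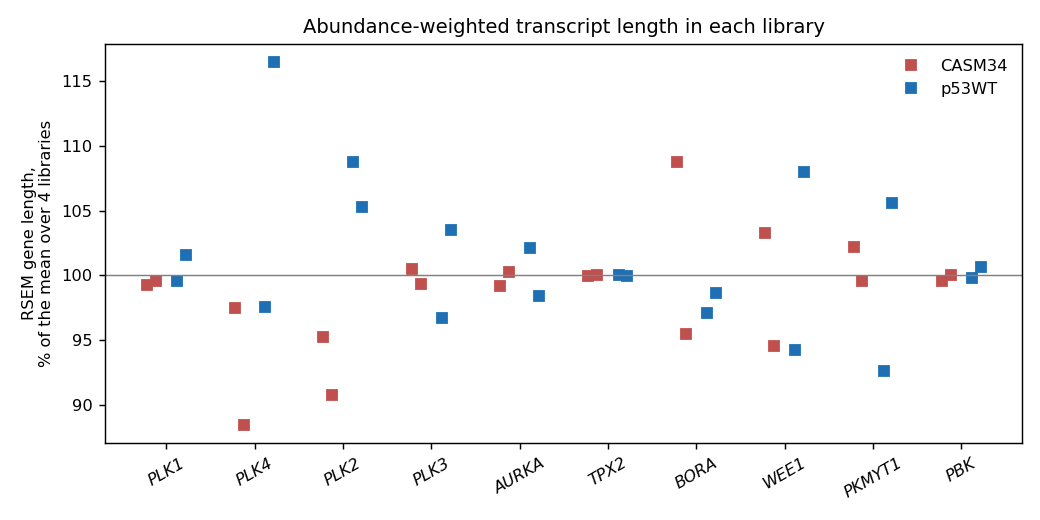
Abundance-weighted transcript length from RSEM in each library, as a percentage of the gene's mean over the 4 libraries, with CASM34 on the left and p53WT on the right. PLK2 is shorter in both CASM34 libraries (2122 and 2022 bases) than in both p53WT libraries (2424 and 2345 bases), and TPX2 and PBK hardly vary.

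Lists of genes of the same pathways were counted whole beside the 10. Of 12 genes of the CDK1 switch, 1 fell, 0 rose and 11 did not pass, and DESeq2 called 2. The median log2 fold change of these 12 was -0.15. An unadjusted p under 0.05 was reached by 8 of the 12, against 17.1% of all tested genes. The one that fell was CDK1 itself, with 114 and 122 CPM in CASM34, against 137 and 141 CPM in p53WT (-0.23, SE 0.05, edgeR adjusted p = 0.0286). Of 18 spindle and centrosome partners of PLK1 and AURKA, 17 were tested, 2 fell and 0 rose, with a median of -0.14 and an unadjusted p under 0.05 for 9. The 2 were KIF11, the kinesin of spindle bipolarity (-0.23, edgeR adjusted p = 0.0255), and BUB1, a spindle checkpoint kinase gene (-0.22, edgeR adjusted p = 0.0306). These 3 calls were lost without p53WT replicate 1 (edgeR adjusted p = 0.0934 for CDK1, 0.135 for KIF11 and 0.188 for BUB1) and without p53WT replicate 2 (0.139, 0.0842 and 0.0651), and that of CDK1 also without CASM34 replicate 1 (0.0920). The offset for GC content and length ended all 3 as well (edgeR adjusted p = 0.170 for CDK1, 0.144 for KIF11 and 0.114 for BUB1), as did an effective length offset (0.293, 0.262 and 0.262), under which the log2 fold changes were no smaller, at -0.23, -0.25 and -0.25. DESeq2 ended the call of KIF11 (-0.24, adjusted p = 0.0646). NEDD9 was too low to test. With the offset for GC content and length, 7 of the 12 and 10 of the 17 had an unadjusted p under 0.05. Over all 15965 tested genes 1889 did.

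The centriole, turnover and transcription lists held no gene that passed edgeR, and their counts at an unadjusted p under 0.05 are to be read against the 17.1% of all tested genes. Of 10 centriole duplication partners of PLK4, 2 had an unadjusted p under 0.05 and the median was -0.11, with the largest difference for CEP135, a centriole assembly gene (-0.19, SE 0.10, edgeR adjusted p = 0.334). Of 10 genes for the turnover of these kinases, 2 had an unadjusted p under 0.05 and the median was -0.05. The largest difference was that of BTRC, the ubiquitin ligase subunit that targets WEE1 and BORA (-0.24, SE 0.08, edgeR adjusted p = 0.160). Of 12 activators of G2/M transcription and DREAM subunits, 2 had an unadjusted p under 0.05 and the median was -0.06, with the largest difference for RBBP4, a histone-binding subunit (-0.17, SE 0.04, edgeR adjusted p = 0.0697). DESeq2 called 0 genes of these 3 lists as well. With the offset for GC content and length, the counts at an unadjusted p under 0.05 were not the same. They were 2 of 10 for the centriole list, 4 of 10 for turnover and 5 of 12 for transcription. Over all 15965 tested genes 1889 reached it by that offset.

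Of 15 p53 and immediate early genes set beside PLK2 and PLK3, 4 rose, 0 fell and 11 did not pass, with a median log2 fold change of 0.20, while 1.61% of all tested genes rose. An unadjusted p under 0.05 was reached by 8 of the 15, against 17.1% of all tested genes. With the offset for GC content and length 5 of the 15 had an unadjusted p under 0.05, as did 1889 of all 15965 tested genes. By that offset the median was 0.11, and JUNB (-0.02), IER2 (-0.03), IER3 (-0.03) and MYC (-0.01) lay below 0. The 4 were FDXR, a mitochondrial ferredoxin reductase gene (0.46), CDKN1A, which encodes p21 (0.38), GADD45A, a growth arrest gene (0.29), and MDM2, the p53 ubiquitin ligase gene (0.23; edgeR adjusted p = 0.00171, 0.00274, 0.0128 and 0.0255). FDXR and CDKN1A passed without any single library, GADD45A did not without p53WT replicate 1 (edgeR adjusted p = 0.109), and MDM2 did not without p53WT replicate 1 (0.204) or p53WT replicate 2 (0.0516). Under the offset for GC content and length CDKN1A (edgeR adjusted p = 0.0218) and MDM2 (0.0374) passed and FDXR (0.0549) and GADD45A (0.0693) did not, and all 4 missed the threshold when effective length was the offset (0.175 to 0.420), where the log2 fold change was 0.43 for FDXR, 0.38 for CDKN1A, 0.29 for GADD45A and 0.15 for MDM2. The antiproliferative gene BTG2 had the largest difference in the list (0.47, SE 0.12) and did not pass (edgeR adjusted p = 0.0660). PLK3 at 0.30 lay within the range of the list, 0.05 to 0.47, and so did PLK2 at 0.12. The 5th to 95th percentile of all tested genes ran from -0.32 to 0.50, so a place within that range sets neither gene apart. The list was chosen with results of some of these genes known, so its direction is not independent evidence.

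**Figure D5:**
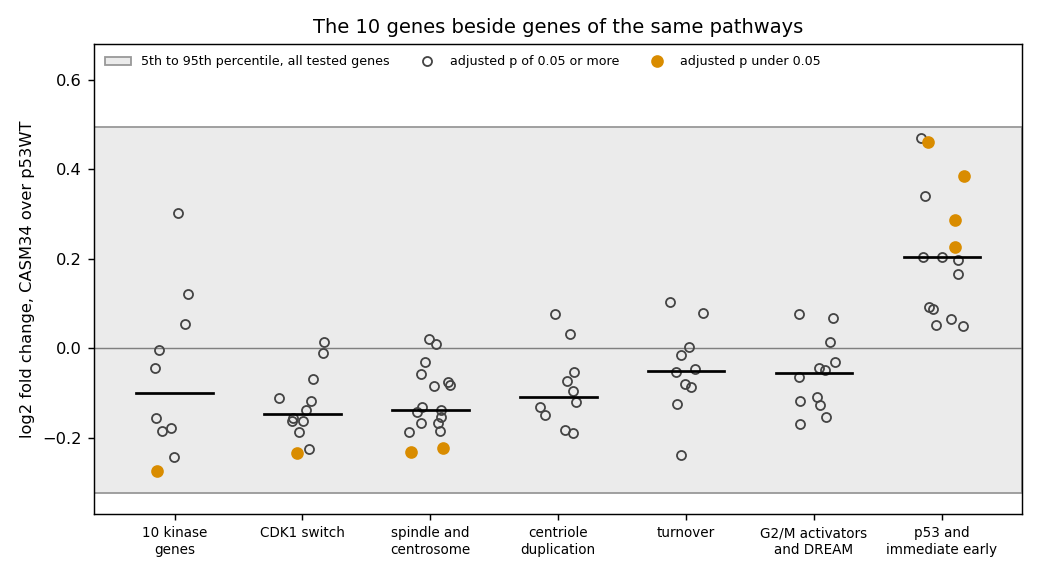
Fitted log2 fold changes of CASM34 over p53WT for the 10 genes and for the tested genes of 6 lists, 1 point a gene, with list medians as bars. Filled points passed an adjusted p under 0.05, and the grey band holds the 5th to 95th percentile of all tested genes, -0.32 to 0.50; medians run from -0.15 for the CDK1 switch to 0.20 for the p53 and immediate early genes.

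Over the 4 libraries, the log2 CPM of PLK1 less its own mean was most like that of IMP4, LARP7 and CCDC59, with root mean square differences of 0.00447 to 0.00601, among 9947 genes with a mean of at least 10 CPM. That of PLK2 was most like KIF1C, DKK1 and NUMBL, with 0.00368 to 0.00530. These names are a description over 4 libraries only.

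The libraries held 18086983 to 26906095 counts. Levels depended on GC content in a way that moved with the groups: per 10 percentage points of GC, log2 levels sloped by 0.0661 and 0.0355 in CASM34, against -0.0559 and -0.0457 in p53WT. The transcripts of the 10 genes run from 39.5% GC for PLK4 to 66.4% for PKMYT1, with a median of 49.5% over tested genes. The part of GC content in the differences of single genes was not tested beyond the offset. Of 6 epithelial markers, KRT8 and KRT18 were high and CDH1, EPCAM, NKX2-1 and KRT19 were at most 0.658 CPM, while the mesenchymal gene VIM lay at 4239 to 4484 CPM. The summed epithelial list was 1592 and 1563 CPM in CASM34 and 1513 and 1545 CPM in p53WT. Of the leukocyte markers, PTPRC and CD3E had 0 counts in every library, LYZ was at most 0.184 CPM and the lysosomal gene CD68 lay at 89.9 to 102 CPM in both groups. None of 5 fibroblast and endothelial markers exceeded 2.79 CPM. None of the tested markers passed by edgeR. In bulk RNA, fewer cells in mitosis and less of these RNAs per cell cannot be told apart.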

How the data were processed

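Trim Galore, STAR and RSEM were run against GRCh38, per the submitters' processing notes, with no versions. No source used here gives the annotation release or the strand setting. Each deposited table holds, per its header as deposited by the authors, RSEM expected counts (estimated counts), effective length, TPM and FPKM for 61852 gene IDs a library; FPKM was not used. TPM was scaled by the authors to a fixed total per library. Effective length and other gene lengths in the deposited tables are in bases.

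Symbols were matched for 61803 IDs. Coordinates and transcript GC content are those of GENCODE 29 on GRCh38, 1-based. Expected counts were rounded; between 8.63% and 9.26% of gene IDs had counts that were not whole (tolerance 0.001). CPM used TMM factors of 0.993 to 1.01. edgeR 4.0.16 in R 4.3.3 (filterByExpr, minimum count 10, glmQLFit and glmQLFTest, group as the only term) tested 15965 genes and removed 45887. An SE is the size of the log2 change divided by the root of F. Alternatives used DESeq2 1.42.0 and limma 3.58.1. The GC and length offset was a spline fit with 5 degrees of freedom for each term, with GC known for 98.1% of tested genes. The fit was tested on simulated data. Libraries of a group differed by more than counting error (chi-square per degree of freedom 3.94 in CASM34 and 3.90 in p53WT).

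The 10 genes, the 7 lists and the alternatives were chosen with earlier results of these data known. All 10 genes are named; of each list, genes that passed and the one with the largest difference are named. The most alike genes were the 3 with the smallest root mean square difference. Some measured genes are not reported here.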

Additional observations from a re-analysis of the deposited data

How the results depend on the processing

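Of the 10 genes 1 passed on all 4 libraries. The count was 0 with library totals only, in limma on log2(TPM + 1) and log2(TPM + 0.1), with an effective length offset and with the GC and length offset (5, 5, 5 and 7 of the 10 had an unadjusted p under 0.05 in the last 4, and 7 with library totals), 2 with no filter on low counts and in limma-voom, and 0 to 2 without single libraries. Over all genes 312 passed, against 777 with no filter, 195 in DESeq2, 0 in both limma fits on TPM (1820 and 1811 with an unadjusted p under 0.05), 3 with the effective length offset, 30 with the GC and length offset and 109 to 919 without single libraries. Of all 15965 tested genes, an unadjusted p under 0.05 was reached by 1901 with the effective length offset, 1889 with the GC and length offset and 2687 with library totals only. In the labels same-numbered replicates share only a number, and whether they were handled together is not stated. The correlation of their deviations was 0.0347, which with 2 libraries a group does not settle a pairing. With a replicate block 4 of the 10 genes and 1159 genes in all passed, and with the block and the GC and length offset 4 and 476. The 4 differed: with the block alone PLK3 was higher (edgeR adjusted p = 0.0177) and AURKA (0.0194), TPX2 (0.00300) and PBK (0.000619) lower, and with the offset added PLK2 was higher (0.0479) and TPX2 (0.00613), PKMYT1 (0.00396) and PBK (0.0219) lower.

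Of 160 values of single genes under 16 alternatives, 128 kept direction and side of the threshold and 13 turned sign. PLK1 ran from -0.104 to 0.00638 without single libraries, above 0 without CASM34 replicate 2. WEE1 ran from -0.0931 to 0.0803, above 0 without p53WT replicate 1 or CASM34 replicate 1. PLK4 turned to 0.0323 and 0.0340 in limma on log2(TPM + 1) and log2(TPM + 0.1) and to 0.0248 with the effective length offset. In the same order WEE1 turned to 0.0184, 0.0205 and 0.00777, and to 0.0545 by the GC and length offset and 0.0513 with the block added. PKMYT1 became -0.21 in both fits with that offset. The cause was not tested. Each median over all genes stayed within 0.02 of 0 on the log2 scale, while that of the 10 genes was -0.0132 and -0.0133 in the limma fits on TPM and -0.0170 with the effective length offset, against -0.10 by edgeR on counts. With 1 library left in a group, that library is assumed to vary like the others.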
